A study of Saccharomyces cerevisiae with 6 samples.

Results

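The KRE2/KTR genes of the budding yeast Saccharomyces cerevisiae encode a family of mannosyltransferases of the Golgi. All 9 genes of the family, KRE2, KTR1 to KTR7 and YUR1, were followed, each taken by its symbol in the probe annotation of the array. Each has 1 probe set, and together they are 9 of the 5449 S. cerevisiae genes tested. The arrays were Affymetrix expression arrays hybridised with biotin-labelled RNA of 6 samples, 3 of a wild type and 3 of a strain without PMR1. The laboratory background appears in the labels both as BY4147 and as BY4741. The wild type is listed as MAT a with ura3Δ0 leu2Δ0 his3Δ0 met15Δ0, and the labels describe the deletion strain, NGY051, as BY4741 in which a kan marker replaces PMR1. Every sample was taken in exponential growth in rich liquid medium, which the labels give both as YPD and as YPAD. To this 5 mM CaCl2 had been added, so that every comparison is made under added calcium. The deletion is represented by this single strain, and nothing in the labels tells whether replicates came from separate cultures, so the spread behind each p-value may be technical.

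PMR1 encodes the P-type ATPase that pumps calcium and manganese into the Golgi. Mannosyltransferases of the Golgi use GDP-mannose as donor and need manganese at the active site, and yeast without Pmr1 is known for shortened mannan on secreted glycoproteins. Enzymes of the KRE2/KTR family are type II membrane proteins that extend the short O-linked chains begun in the ER, the outer chains of N-linked glycans, or both. The comparison asks how the transcripts of these manganese-dependent enzymes differ between cells with and without the pump.

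The labels were checked first on PMR1 (YGL167C), whose levels were 11.81, 11.79 and 11.84 in the wild type and 2.79, 3.45 and 3.16 in the deletion, on the log2 scale of the deposited values. The deletion arrays were all below the array background (4.18 to 4.31). This was, on each array, the 95th percentile over named probe sets whose gene is absent from the S. cerevisiae gene table. These were taken to be for Schizosaccharomyces pombe, the fission yeast, and their species was not checked. Of 5 markers of a cells all were far above background, with mean levels from 11.87 to 13.39 in the wild type. Among 4 markers of alpha cells MF(ALPHA)1 was below background on every array. STE3, SAG1 and MF(ALPHA)2 were above it on all 6 arrays, by at least 3.04, 4.59 and 1.89 on the log2 scale. Of the a-cell markers 4 were lower in the deletion, led by MFA1 and MFA2 (log2 changes of -0.66 and -0.64, limma adjusted p = 0.000311 and 5.84e-05). The remaining one, BAR1, had a positive log2 change of 0.08 and did not pass (adjusted p = 0.313). Of the alpha-cell markers 3 were higher, led by the pheromone receptor STE3 (mean levels 7.40 and 7.96, limma adjusted p = 0.000888). STE3 kept its call whichever array was left out, while MF(ALPHA)2 lost its call in 5 of these 6 fits and SAG1 in 4. The summed level of the a-cell markers was 15.04 to 15.09 in the wild type and 14.56 to 14.64 in the deletion, and that of the alpha-cell markers 9.46 to 9.59 and 9.73 to 9.84. The part of these marker shifts in the results that follow was not tested, and in bulk RNA a change in the share of cells in some state and a change per cell cannot be told apart.

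KTR2 and YUR1, whose products act on N-linked chains, were the members with the clearest rises in the deletion, 2.03-fold for KTR2 and 1.42-fold for YUR1. KRE2 rose by 1.11-fold, at the edge of what the arrays resolve. The other 6 members did not pass the test, and among them only KTR5 and KTR6 had negative log2 changes. In all, 3 of 9 members were higher and 0 lower by limma at an adjusted p of 0.05 over all probe sets. Over all 5498 probe sets tested, 29.2% passed the test in either direction, 17.5% as higher and 11.7% as lower, and the members' share called was 33.3%. The family's share was near that of all probe sets in either direction. For higher calls alone it was 33.3% beside 17.5%, which with 9 members was not tested. The results here are therefore given as those of single members. For 4 members, all of them higher in the deletion, the arrays of the groups did not overlap, while over all probe sets the groups did not overlap for 46.7%, with 27.4% higher and 19.3% lower. Before adjustment 5 members had a p under 0.05, and with robust priors and an intensity trend in limma 5 were higher and 1 lower. The median log2 change of the 9 members was 0.10, beside 0.01 over all probe sets, with members between -0.17 and 1.03. All 9 were well above background, by at least 4.83 on the log2 scale on every array, so that no value here is a bound.

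**Figure D1:**
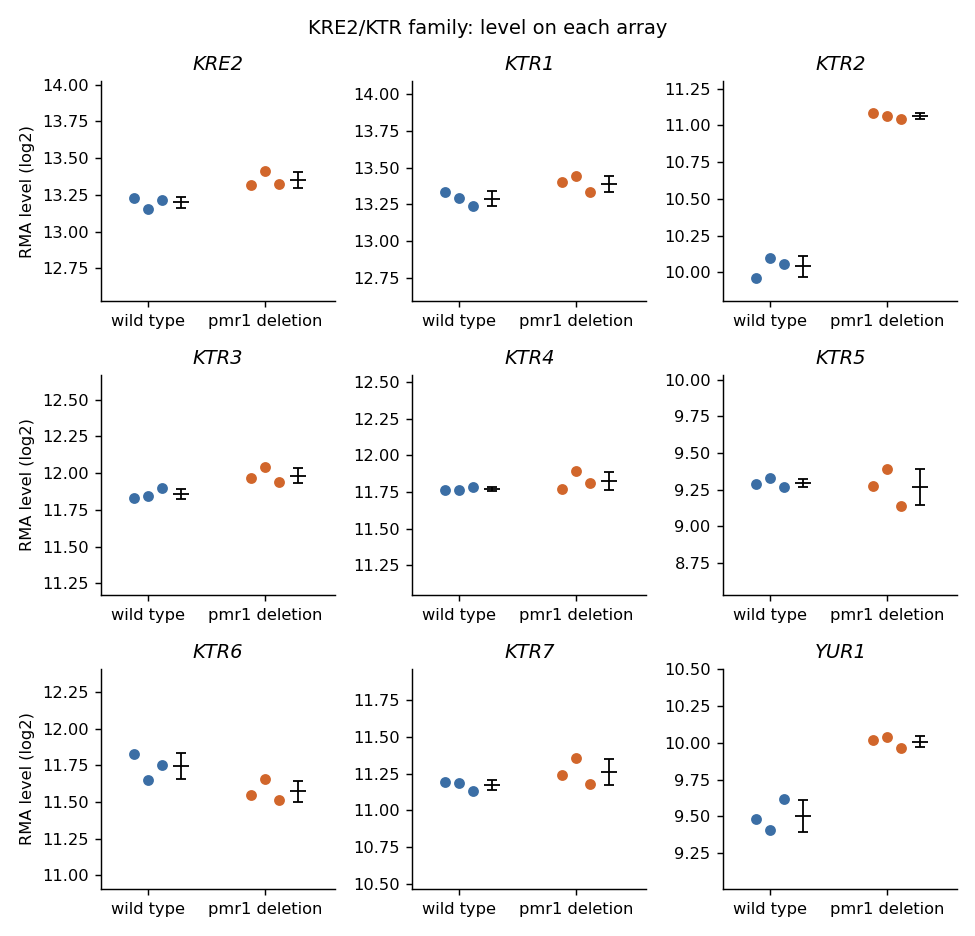
RMA level (log2) of the 9 members on each array, with 3 wild-type points in blue and 3 deletion points in orange and, beside them, the mean and SD of the group. Each panel spans the same height of 1.5 log2 units but its own levels, so changes can be compared between panels and levels cannot. KTR2 and YUR1 show wide gaps between the groups, KRE2 and KTR3 narrow ones, and the groups of the other 5 overlap.

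Ktr2 and Yur1 are close relatives, known as a duplicate pair of the ancient whole-genome duplication, and both take part in the outer chain of N-linked glycans. KTR2 (YKR061W) had levels of 9.96, 10.10 and 10.06 in the wild type and of 11.09, 11.07 and 11.04 in the deletion. The 3 deletion values lay close together and about 1 log2 unit above the highest wild-type value. The means were 10.04 ± 0.069 (SD, n = 3) and 11.07 ± 0.023 (SD, n = 3). The log2 change was 1.03 (SE 0.044, 95% interval 0.92 to 1.13, limma adjusted p = 3.14e-05), or 1.89-fold to 2.19-fold. Only 19 of the 5498 probe sets had a larger rise, and KTR2 was among the 22 (0.400%) that rose at least 2-fold.

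YUR1 (YJL139C) had levels of 9.48, 9.41 and 9.62 in the wild type and of 10.02, 10.04 and 9.97 in the deletion. The groups did not overlap, and the wild-type arrays varied more than the deletion arrays, at 9.50 ± 0.11 (SD, n = 3) against 10.01 ± 0.036 (SD, n = 3). Its log2 change was 0.51 (SE 0.057, 95% interval 0.37 to 0.64, limma adjusted p = 0.00112), and 143 probe sets had a larger rise. Among all probe sets 140 (2.55%) passed the test with a rise at least as large. With any 1 array left out, the log2 change was 0.99 to 1.05 for KTR2 and 0.46 to 0.56 for YUR1, and both kept their calls.

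KRE2, KTR1 and KTR3 encode the enzymes that add the second and the third mannose to O-linked chains, with overlapping roles, and that also act on N-linked chains. Their log2 changes were all positive and small, and only that of KRE2 passed. KRE2 (YDR483W), also known as MNT1 and the founding member of the family, had levels of 13.23, 13.16 and 13.22 in the wild type and of 13.31, 13.42 and 13.32 in the deletion. The lowest deletion value was just above the highest wild-type value. The log2 change was 0.15 (SE 0.042, 95% interval 0.05 to 0.25, limma adjusted p = 0.0374). This call ended whichever of the 6 arrays was left out (adjusted p of 0.069 to 0.0804, with log2 changes of 0.12 to 0.17).

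KTR3 (YBR205W) had levels of 11.83, 11.84 and 11.90 in the wild type and of 11.97, 12.04 and 11.94 in the deletion. Its groups did not overlap either, and its log2 change of 0.13 (SE 0.041, 95% interval 0.03 to 0.22) missed the threshold narrowly (limma adjusted p = 0.0563). KTR1 (YOR099W) had levels of 13.34, 13.29 and 13.24 in the wild type and of 13.40, 13.44 and 13.33 in the deletion. Its lowest deletion value fell just under its highest wild-type value, and the log2 change was 0.10 (SE 0.044, 95% interval -0.0032 to 0.21, limma adjusted p = 0.129). The upper ends of the 95% intervals were 1.17-fold for KTR3 and 1.15-fold for KTR1.

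KTR6 (YPL053C), also known as MNN6, encodes the enzyme that transfers mannosylphosphate to glycans, which gives the wall negative charge. Its levels were 11.83, 11.65 and 11.75 in the wild type and 11.55, 11.65 and 11.52 in the deletion. The highest deletion value, on replicate 2, met the lowest wild-type value, also on replicate 2, and the other arrays were apart. The log2 change was -0.17 (SE 0.058, 95% interval -0.31 to -0.03), with a limma adjusted p of 0.0687. KTR6 passed the threshold as lower in 5 alternative settings, among them all 3 renewed scalings of the arrays (adjusted p of 0.0264 to 0.0455), and without wild-type replicate 2 (log2 change -0.22, adjusted p = 0.03). MNN4, which encodes a positive regulator of the same transfer, had mean levels of 10.42 ± 0.11 (SD, n = 3) and 10.56 ± 0.025 (SD, n = 3), with a log2 change of 0.14 (SE 0.058, limma adjusted p = 0.117).

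KTR4, KTR5 and KTR7 encode members whose own reactions are less well known, and none passed the test. KTR4 (YBR199W) had levels of 11.77, 11.76 and 11.79 in the wild type and of 11.77, 11.89 and 11.81 in the deletion. Deletion replicate 1 lay among the wild-type values, and the log2 change was 0.05 (95% interval -0.05 to 0.15, limma adjusted p = 0.377). KTR7 (YIL085C) had levels of 11.20, 11.19 and 11.13 in the wild type and of 11.24, 11.36 and 11.18 in the deletion. Deletion replicate 3 lay among the wild-type values, and the log2 change was 0.09 (95% interval -0.03 to 0.21, limma adjusted p = 0.235). KTR5 (YNL029C) had levels of 9.29, 9.33 and 9.27 in the wild type and of 9.28, 9.39 and 9.14 in the deletion. The deletion values fell on both sides of the wild-type values and had the widest spread of the family (SD 0.12, n = 3), with a log2 change of -0.03 (95% interval -0.18 to 0.12, limma adjusted p = 0.793). Its sign turned without deletion replicate 3, to 0.04.

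In the deletion group 8 of 9 members were highest on replicate 2 and 7 of 9 were lowest on replicate 3. All 9 members on replicate 2 exceeded the mean of the other deletion arrays, by a median of 0.098, while the median excess over all tested probe sets was 0.043 and 3868 of the 5498 were above 0. The changes of 0.05 to 0.15 seen for KRE2, KTR1, KTR3, KTR4 and KTR7 are of the same size as this excess. The excess is that of 1 array, and it enters the mean of the group only in part. Without deletion replicate 2 the log2 changes of these members were 0.12, 0.08, 0.10, 0.02 and 0.04, and those of KTR2 and YUR1 were 1.02 and 0.49.

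**Figure D2:**
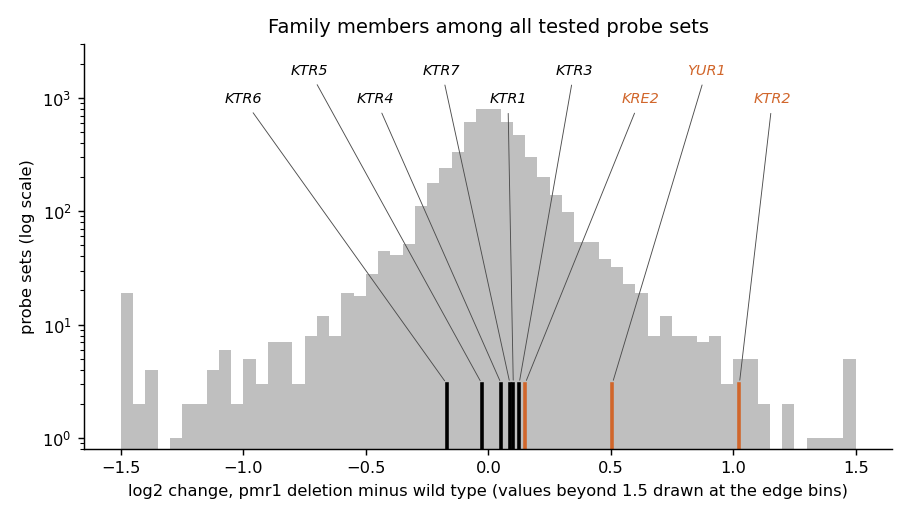
Histogram of the log2 change (deletion minus wild type) of all 5498 tested probe sets, with a log scale for the number of probe sets, and with the 9 members as vertical marks, in orange where the limma adjusted p was under 0.05. KTR2 at 1.03 and YUR1 at 0.51 stand in the right tail, and the other 7 members lie between -0.17 and 0.15 in the body of the distribution. Probe sets with changes beyond 1.5 in size are drawn at the edges.

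**Figure D3:**
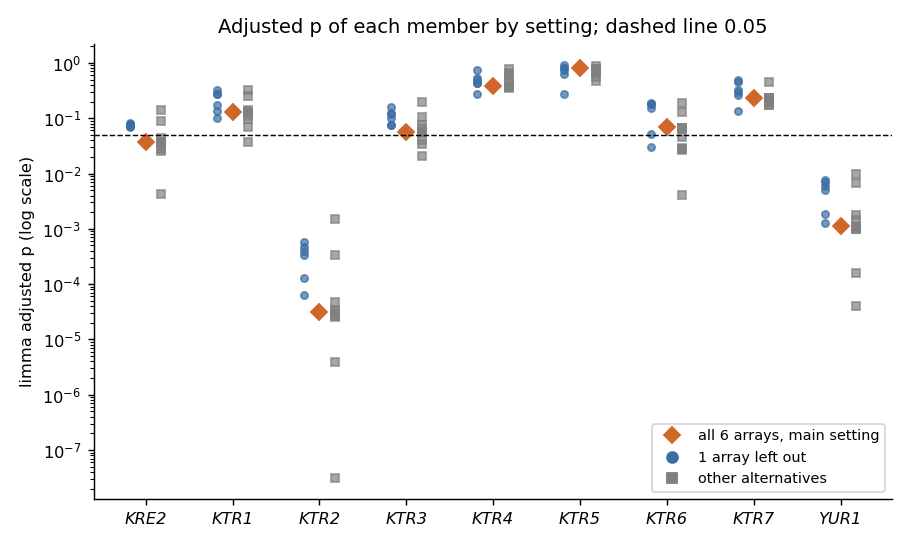
Limma adjusted p (log scale) of each member with all 6 arrays and the main setting (orange), with 1 array left out (blue, 6 fits) and under the other 10 alternatives (grey). KTR2 and YUR1 stay under the dashed line at 0.05 throughout, KRE2 crosses it, and KTR1, KTR3 and KTR6 reach below it in some settings only.

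Duplicate pairs allow a comparison of changes within the family. Besides KTR2 with YUR1, KRE2 with KTR6 and KTR5 with KTR7 are known as pairs from the whole-genome duplication, and the pairs were taken from this background knowledge after the values were seen. For each pair the difference of the log2 levels was formed on each array, and only its change between the groups was read, since levels of different probe sets cannot be set against each other. KTR2 minus YUR1 was 0.48, 0.69 and 0.44 in the wild type and 1.07, 1.03 and 1.07 in the deletion, so the rise of KTR2 was larger by 0.52 on the log2 scale. KRE2 minus KTR6 was 1.40, 1.51 and 1.46 in the wild type and 1.76, 1.76 and 1.80 in the deletion, a difference in change of 0.32. KTR7 minus KTR5 was 1.91, 1.86 and 1.86 in the wild type and 1.96, 1.97 and 2.04 in the deletion, a difference in change of 0.11. In each pair the 3 deletion values did not overlap the 3 wild-type values. Their direction follows from the order of subtraction and is not a result. Among single probe sets the groups did not overlap for 46.7%, and the share for differences between probe sets was not computed. An exact permutation test (two-sided) gave p = 0.1 for each pair, the smallest that 3 arrays against 3 allow, so this test could not reach 0.05.

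**Figure D4:**
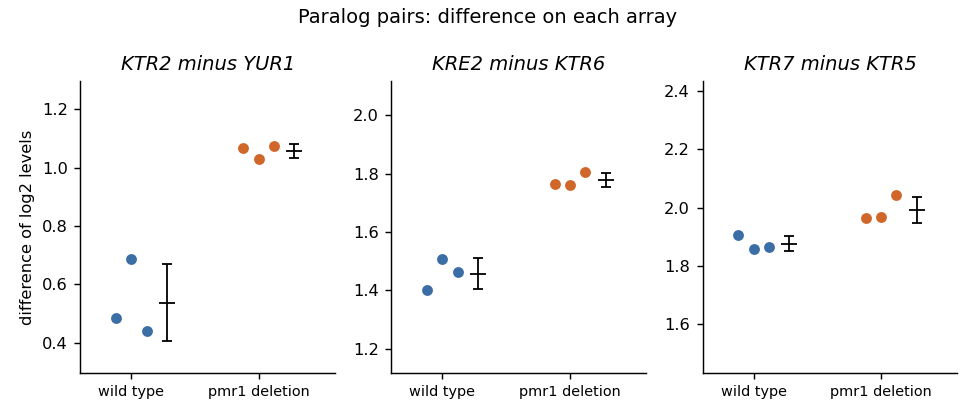
Difference of the log2 levels of the members of each duplicate pair on each array, with 3 wild-type points in blue, 3 deletion points in orange, and the mean and SD beside them. Each panel spans the same height of 1 log2 unit. The groups do not overlap in any pair, and the direction of each shift follows from the order of subtraction. The shift is largest for KTR2 minus YUR1 (0.54 and 1.06 on average) and least for KTR7 minus KTR5 (1.88 and 1.99).

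Around the family, the other mannosylation genes gave 7 higher and 1 lower of 29 measured genes, with a median log2 change of 0.03. Over all probe sets 17.5% were higher and 11.7% lower. No list count here or below was tested against these shares. The number of higher genes was 3 without deletion replicate 1, 4 without deletion replicate 2, deletion replicate 3 or wild-type replicate 3, and 5 without either of the other wild-type arrays. Of 7 genes for the backbone of the outer chain, 2 were higher and 0 lower. OCH1, the enzyme that starts the outer chain on which Ktr2 and Yur1 act, had levels of 11.69, 11.63 and 11.74 in the wild type and of 12.04, 12.10 and 11.98 in the deletion. The groups were apart, with a log2 change of 0.35 (SE 0.047, limma adjusted p = 0.00235). VAN1, a subunit of a mannan polymerase, rose by 0.17 (adjusted p = 0.048), a call that ended whichever array was left out (0.0565 to 0.1). The other 5 backbone genes, which include the polymerase subunits MNN9, MNN10, MNN11 and ANP1, did not pass.

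Of 7 measured MNN1 and MNN2 side-chain genes 3 were higher and 1 lower. MNT4, a putative relative of the terminal mannosyltransferase MNN1, had levels of 10.02, 10.14 and 10.21 in the wild type and of 11.02, 11.17 and 10.99 in the deletion. Its log2 change of 0.93 (SE 0.066, limma adjusted p = 0.00017) had a 95% interval of 0.78 to 1.09, which overlaps that of KTR2, and the difference between these changes was not tested. MNT2, which acts late on O-linked chains after the KRE2/KTR enzymes, rose by 0.29 (SE 0.032, adjusted p = 0.00102). MNN1 rose by 0.21 and MNN2, which starts the branches of the outer chain, fell by 0.12 (both adjusted p = 0.0459). The call of MNN1 ended whichever array was left out (0.0579 to 0.119), and that of MNN2 when replicate 1 or 3 of either group was left out (0.127 to 0.15). MNN14 was not analysed here.

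In the ER, where O-mannosylation begins, 2 of 8 genes were higher and 0 lower, and neither was among the main enzymes PMT1, PMT2 and PMT4. The putative family member PMT7 and DPM1, the synthase of the donor dolichyl phosphate mannose, each rose by 0.15 (adjusted p = 0.0205 and 0.014). The call of PMT7 ended without wild-type replicate 3 or any 1 deletion array (0.0514 to 0.0601), and that of DPM1 without replicate 1 of either group (0.0523 and 0.0585). Of 7 genes listed for the supply of GDP-mannose in the Golgi, limma called 0 in either direction, with log2 changes from -0.10 to 0.07. Before adjustment 1 of them, GDA1, the Golgi GDPase, had a p of 0.0324. Limma called 1 of the 7 lower under each of the 3 renewed scalings and with array weights, and 1 higher with an intensity trend and robust priors.

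**Figure D5:**
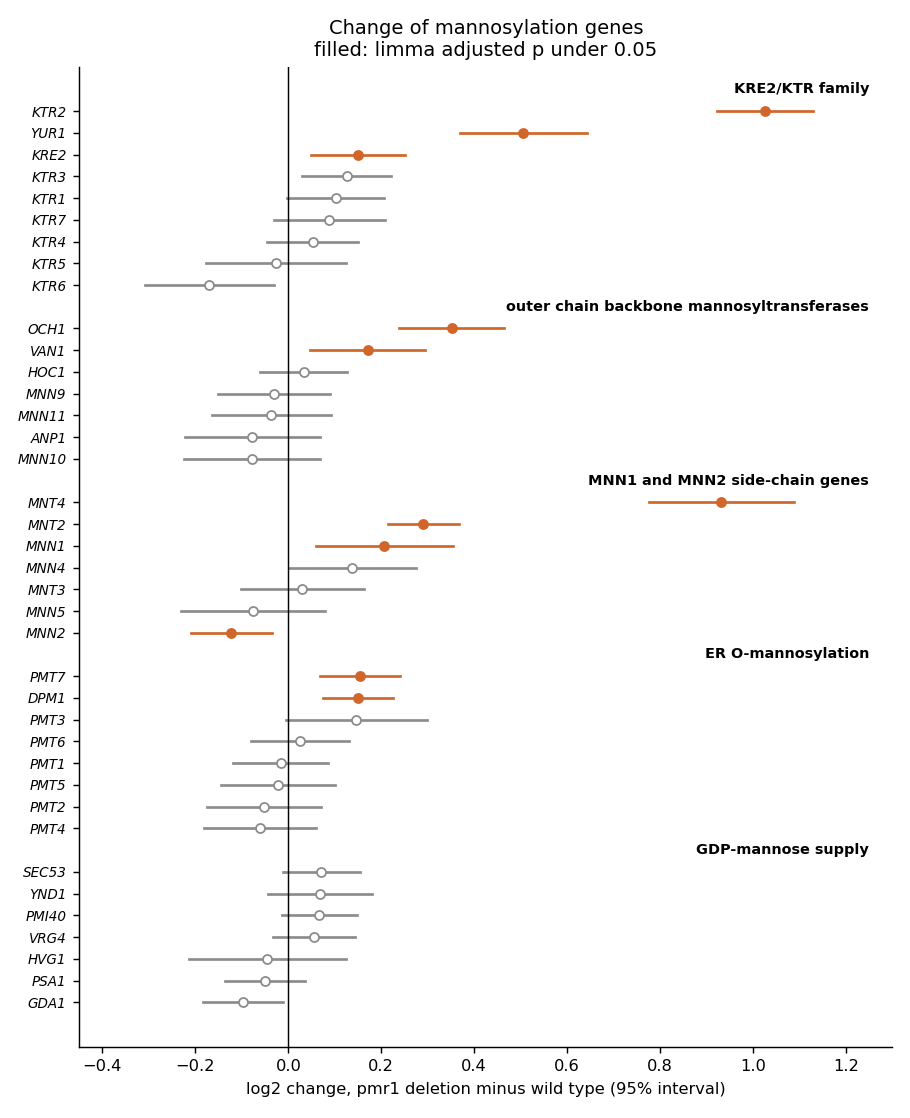
Log2 change (deletion minus wild type) with its 95% interval for the 9 members and for 29 other mannosylation genes in 4 lists, filled and orange where the limma adjusted p was under 0.05. KTR2 at 1.03 and MNT4 at 0.93 stand apart to the right, followed by YUR1 at 0.51 and OCH1 at 0.35, while the GDP-mannose genes stay within -0.10 and 0.07.

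Of 11 genes that keep the enzymes in the Golgi, namely those for Vps74, which binds the cytosolic tails of KRE2/KTR enzymes, for Erd1 and for the COPI coat and its Arf GTPases, 2 were higher and 0 lower. VPS74 itself had levels of 10.99, 10.96 and 10.99 in the wild type and of 11.14, 11.15 and 11.12 in the deletion. Its groups were apart by more than their spread, with a log2 change of 0.16 (SE 0.032, limma adjusted p = 0.0111), and its call ended without deletion replicate 1 (0.0522). RET2, a COPI subunit, rose by 0.16 (adjusted p = 0.0222), a call that held without wild-type replicate 2 and ended without any other array (0.0507 to 0.0791). The number of higher genes among these 11 was 4 without wild-type replicate 2, 0 without deletion replicate 1 and 1 without any other array, and it was 4 with an intensity trend and robust priors, 4 with array weights (where 1 was lower) and 0 when the whole array was tested. Of 4 other genes that bear on manganese in the Golgi 1 was lower, the plasma membrane manganese transporter SMF1, at -0.25 (SE 0.043, limma adjusted p = 0.00568). In this group 2 were lower without deletion replicate 2, under each of the 3 renewed scalings and with an intensity trend and robust priors, and 3 were lower with array weights. GDT1, which brings manganese and calcium into the Golgi beside Pmr1, had mean levels of 12.79 and 12.71 (adjusted p = 0.257).

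The genes most like each called member over the 6 arrays were sought by Pearson's r of the log2 levels, outside the family. With 6 arrays in 2 groups this value is set mostly by the difference between the groups, and it is given as a description. For KTR2 they were ERG9 (r = 0.9996), the squalene synthase, SRL3 (r = 0.9991) and ERG20 (r = 0.9990), the farnesyl diphosphate synthase, with log2 changes of 0.35, 1.07 and 0.33. For YUR1 they were BLI1, LTE1 and SHM1, with r of 0.995 to 0.999 and log2 changes of 0.37, 0.19 and 0.16. For KRE2 they were KCH1, YNL095C and SLM1, with r of 0.992 to 0.995 and log2 changes of 0.39, 0.40 and 0.13. Likeness of this degree was common, since 467 genes had an r over 0.95 with KTR2, 267 with YUR1 and 134 with KRE2.

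Of the genes that adjoin KTR2 and YUR1 in the R64 gene table, none passed the test. UTP30 and TFA2, on either side of KTR2, had log2 changes of -0.08 and 0.10 (adjusted p = 0.29 and 0.119). RPB4 and TIF2, on either side of YUR1, had log2 changes of -0.07 and -0.01 (adjusted p = 0.322 and 0.783). Beside KRE2, CWC21 rose by 0.31 (adjusted p = 0.0118), and VPS52 had a log2 change of -0.01. Beside KTR1, the carnitine transporter gene CRC1 was lower, with mean levels of 5.47 and 4.70 (log2 change -0.77, SE 0.18, limma adjusted p = 0.0201). Its mean in the deletion was close to the array background of 4.18 to 4.31. KTR5 adjoins CRZ1, the gene of the calcineurin-responsive transcription factor, whose mean levels were 9.39 and 9.47 (adjusted p = 0.161).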

How the data were processed

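The deposited table holds RMA values of 10928 probe sets on 6 arrays, in log2 units, with 0 missing values. GCOS, RMA and limma are the authors' tools per the submitters' processing notes, without versions. RMA sets arrays to a common distribution and compresses folds, and precision is limited by the number of arrays. Groups came from the titles. A probe annotation named 5498 probe sets with 1 S. cerevisiae symbol, and the R64 gene table updated 12 symbols and gave neighbours. No coordinates are printed, as the build of the array's design is not given here. The fit used limma 3.58.1 in R 4.3.3 (lmFit, eBayes, two-sided) on these probe sets, with Benjamini-Hochberg adjustment over all of them and a threshold of 0.05, and was tested on simulated data. Named were all members, PMR1, up to 4 called genes per list with the largest change, and the 3 most like genes per called member. MNN4, GDA1, GDT1 and the neighbours were added after their values were seen. The members and lists were chosen with earlier results of these data known. Promoter motifs and protein identity were not analysed here. Duplicate pairs rest on background knowledge. Figures used matplotlib 3.10.9.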

Additional observations from a re-analysis of the deposited data

How the results depend on the processing

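The calls of KTR2 and YUR1 held under all 10 alternatives and without each array in turn, with adjusted p of at most 0.00149 and 0.00961. Of the 10, only the renewed scalings and the array weights changed the log2 changes of the members. The others altered only the variance, the model or the set of probe sets tested. Replicate numbers did not pair the samples (correlations of same-numbered deviations were -0.14, 0.00032 and 0.081), and with the replicate block KRE2 had an adjusted p of 0.0898, 2 members were higher, and the other mannosylation genes gave 4 higher and 0 lower. With all probe sets of the array KRE2 was at 0.141, the other mannosylation genes gave 3 and 0, and all probe sets 548 and 325. With an intensity trend and robust priors KTR1 (0.0378), KTR3 (0.0343) and KTR6 (0.0289) passed, for 5 members higher and 1 lower. KTR3 also passed with median scaling (0.0412) and array weights (0.0208). KTR6 passed as lower with renewed quantiles (0.0279), median scaling (0.0455), cyclic loess (0.0264) and array weights (0.00414), so 1 member was lower in each. These scalings gave 2 other mannosylation genes lower, and array weights 6, with 1087 lower of all. The fit with array weights leans on deletion replicate 1, with a weight of 4.79 beside 0.42 and 0.89 for deletion replicates 2 and 3. Without each array in turn the adjusted p was 0.069 to 0.0804 for KRE2, 0.03 to 0.19 for KTR6 and 0.272 to 0.93 for KTR5, whose sign turned without deletion replicate 3 (0.638). The count of lower members was then 0 to 1, that of other mannosylation genes 3 to 5 higher and 0 to 2 lower, and that of all probe sets 599 to 1041 higher and 373 to 629 lower. Among the fits without 1 array, the lowest counts over all probe sets were those without deletion replicate 1. Leaving out an array lowers the number of samples, and the setting with the whole array tests 10928 probe sets, while for the other shifts the cause was not tested. The differences in change within the duplicate pairs kept their sign in the fits added after seeing the data.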
